A study of Mus musculus with 4 samples.

Results

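The MHC class I antigen presentation genes are 10 genes of the class I pathway, taken by their names from the deposited gene table: B2m, H2-K1, H2-D1, Tap1, Tap2, Tapbp, Psmb8, Psmb9, Psmb10 and Nlrc5. All 10 were among the 24312 genes listed, and all 10 passed the filter on low counts, which left 13008 genes. Their levels in CD8 T cells with added BATF lay close to those in cells with the empty vector. The light chain B2m and the heavy chains H2-K1 and H2-D1 differed by at most 0.08 on the log2 scale, and none of the 10 genes passed the test over all genes. Psmb10, an inducible proteasome subunit, had the largest difference, at 79.1% of its level in vector cells, and it missed the threshold.

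The study measured poly(A) RNA in P14 CD8 T cells, T cells of C57BL/6 mice with a transgenic receptor for gp33, a peptide of lymphocytic choriomeningitis virus. The groups are BATF, transduced with the retrovirus MIG carrying BATF, and MIG, transduced with the vector alone, which expresses GFP (MSCV-IRES-GFP). BATF belongs to the AP-1 transcription factors and binds DNA with JUN proteins and with IRF4. Both groups had 100 ng/ml gp33 for 1 day before and 1 day after transduction, then 10 ng/ml IL-2 for 2 days, then a sort for CD8+ GFP+ cells and 1 ng/ml IL-2 for 2 days. The question of the design is what added BATF does to transcript levels in such cells. The sources used here do not give the age, sex or number of the mice, and activated T cells in culture were the cells measured. Each group had 2 libraries, with 19004726 and 21835968 fragments in BATF and 24795714 and 20354623 in MIG. Batf itself stood at 1342 and 934 CPM (fragment counts scaled to library size) in BATF libraries, against 36.1 and 26.5 CPM in MIG libraries, and it rose by 5.18 ± 0.24 (SE) on the log2 scale, with an adjusted p of 0.00188 in edgeR.

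Class I molecules show fragments of a cell's own proteins to CD8 T cells. The proteasome cuts those proteins, and in cells exposed to interferon the inducible subunits encoded by Psmb8, Psmb9 and Psmb10 take the places of the constitutive catalytic subunits. The transporter formed by the products of Tap1 and Tap2 moves the peptides into the endoplasmic reticulum, where tapasin, encoded by Tapbp, holds it to an empty heavy chain, and the filled heavy chain reaches the surface bound to beta-2 microglobulin. NLRC5 is the transactivator that raises transcription of many of these genes, and lymphocytes, which carry much class I on their surface, depend on it. The gp33 peptide is itself shown to P14 cells by the heavy chain that H2-D1 encodes in C57BL/6 mice.

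Genes of the pathway stand together in the genome, and some share control sequence. Of the 10, Tap1, Tap2, Tapbp, Psmb8, Psmb9, H2-K1 and H2-D1 lie on chromosome 17, B2m on chromosome 2, and Psmb10 and Nlrc5 on chromosome 8. Psmb9, Tap1, Psmb8 and Tap2 follow each other with no other protein-coding gene between them. RefSeq promoter sequence (build GRCm38.p6, while the study's notes name mm9) matched 8 of the 10. The 250 bases before the start of transcription are printed for H2-K1, H2-D1 and B2m, whose products form the surface molecule, and for Tap1, whose window is mostly shared with Psmb9. Where a gene has several annotated starts, the start farthest downstream was used. Capitals mark 4 motifs on either strand, an NF-κB core (GGGNNTTCC), a core of the interferon-stimulated response element (GAANNGAAA), the core of the cyclic AMP response element, or CRE (TGACG), and the CCAAT box (CCAAT).
H2-K1, chr17:34000334-34000583, minus strand: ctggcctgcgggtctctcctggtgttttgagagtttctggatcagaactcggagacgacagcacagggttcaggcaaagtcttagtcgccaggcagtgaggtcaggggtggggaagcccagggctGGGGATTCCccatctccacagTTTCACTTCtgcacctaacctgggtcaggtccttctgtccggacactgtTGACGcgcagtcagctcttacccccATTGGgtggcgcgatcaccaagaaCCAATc
H2-D1, chr17:35262844-35263093, plus strand: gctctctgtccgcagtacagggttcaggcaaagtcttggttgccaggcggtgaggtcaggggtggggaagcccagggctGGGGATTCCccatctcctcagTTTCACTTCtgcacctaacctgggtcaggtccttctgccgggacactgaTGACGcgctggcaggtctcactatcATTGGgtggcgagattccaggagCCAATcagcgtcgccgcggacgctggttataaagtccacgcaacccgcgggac
B2m, chr2:122147437-122147686, plus strand: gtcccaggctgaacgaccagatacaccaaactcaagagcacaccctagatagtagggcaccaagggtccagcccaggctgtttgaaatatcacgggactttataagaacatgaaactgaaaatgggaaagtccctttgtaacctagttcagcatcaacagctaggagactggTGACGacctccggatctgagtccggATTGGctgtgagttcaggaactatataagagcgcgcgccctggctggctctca
Tap1, chr17:34187306-34187555, plus strand: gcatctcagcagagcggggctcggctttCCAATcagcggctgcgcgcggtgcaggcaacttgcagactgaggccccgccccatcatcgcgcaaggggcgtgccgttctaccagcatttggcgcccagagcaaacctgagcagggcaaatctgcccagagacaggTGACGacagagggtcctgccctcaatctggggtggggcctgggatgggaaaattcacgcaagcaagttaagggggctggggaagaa

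The H2-K1 and H2-D1 windows aligned over 192 columns with 89.6% identical bases, and they hold the same motifs in the same order. In both, the NF-κB core came 21 bases before the interferon element, which came 49 bases before the CRE core, which came 25 bases before a CCAAT box read on the other strand. Of these motifs as spelled here, the B2m window holds the last pair alone, at that same distance of 25 bases. At the starts used here, the Tap1 and Psmb9 genes begin 226 bases apart on opposite strands, so that 225 bases of their windows are shared. Among the 8 windows the CCAAT box was found in 6 and the CRE core in 5, while over 27025 mouse promoters of that length the shares were 34% and 17.5%. The CCAAT box and CRE core of Tap1 are the same sites as those of Psmb9, in the bases the windows share, so these counts hold each of those sites in both genes. With the letters searched, the interferon element and the NF-κB core were found in H2-K1 and H2-D1 alone of the 8, against shares of 6.48% and 4.91%. The B2m window holds gaaactgaaa, with a longer gap between GAA and GAAA than the searched letters allow. The absence of the interferon element from B2m therefore depends on the spelling. The AP-1 motif TGANTCA was in none of the 8 windows and in 6.89% of all promoters. These matches are letters in a window, not measured sites.

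The order of levels was read from FPKM, the deposited level scaled to transcript length and library size. B2m was the highest of the 10, between 2767 and 2913 FPKM over the 4 libraries, and ranked 30 among all listed genes by mean FPKM. H2-K1 followed with 1341 to 1634 FPKM and H2-D1 with 1165 to 1395, and their ranges overlap. Psmb8 lay between 477 and 598 FPKM. Psmb9 (202 to 282 FPKM) and Tapbp (173 to 217 FPKM) overlapped each other, as did Psmb10, Tap1 and Tap2, all of which lay between 109 and 157 FPKM. Nlrc5, the regulator, was the lowest, at 22.5 to 31.0 FPKM. In transcripts, then, the surface chains stood well above the transporter that supplies them, and no range of one of these tiers met that of the next.

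**Figure D1:**
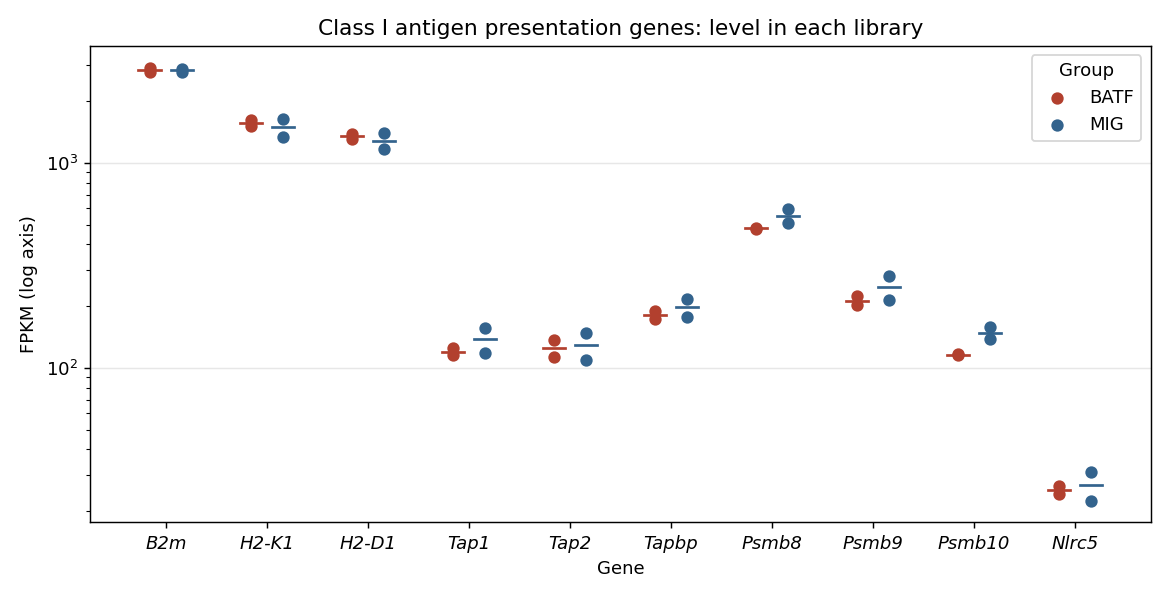
Deposited FPKM of each of the 10 genes on a log axis, with 1 point per library and a bar at the mean of each group, BATF left of MIG. B2m is highest at 2767 to 2913 FPKM and Nlrc5 lowest at 22.5 to 31.0, and the groups overlap for every gene except Psmb8 and Psmb10.

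The chains of the surface molecule come first. B2m, the light chain shared by all class I molecules, stood at 1966 and 1837 CPM in BATF libraries, against 1821 and 1943 CPM in MIG libraries. The groups overlap, and its log2 fold change was 0.01 (95% interval −0.18 to 0.21, here and below from edgeR for the single gene), which spans 88.1% to 116% of the MIG level. H2-K1, the heavy chain of H-2K, had 2412 and 2201 CPM in BATF libraries, against 2356 and 2008 CPM in MIG libraries. H2-D1, the heavy chain of H-2D, had 2182 and 2037 CPM in BATF libraries, against 2138 and 1854 CPM in MIG libraries. For both heavy chains MIG replicate 2 was the lowest library and BATF replicate 1 the highest, and the groups overlap. Their log2 fold changes were both 0.08, with intervals of −0.17 to 0.33 for H2-K1 and −0.15 to 0.31 for H2-D1. The edgeR adjusted p was 0.989 for B2m, 0.917 for H2-K1 and 0.907 for H2-D1.

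Heavy chain genes resemble each other, and counts of some may be less certain than that of B2m. Of the 50-base windows of the longest coding transcript (GENCODE M21), 14.3% in H2-D1 and 8.79% in H2-K1 also occur in a transcript of another gene. Matches on either strand were counted, and in B2m, Psmb10 and Nlrc5 there were 0. Shared windows are not particular to heavy chains, with 21% in Tapbp, 12.6% in Tap2, 12.5% in Psmb9, 6.47% in Tap1 and 5.83% in Psmb8. The counts of H2-D1 and of H2-L carry fractions in all 4 libraries, while those of H2-K1 and of the other members are whole in every library. The table lists H2-L although the H-2b haplotype of C57BL/6 mice is known to lack the L gene. H2-D1 and H2-L summed to 2458 and 2319 CPM in BATF libraries, against 2477 and 2057 CPM in MIG libraries, and these overlap as well.

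Tap1 and Tap2 encode the chains of the peptide transporter. Tap1 had 352 and 321 CPM in BATF libraries, against 430 and 338 CPM in MIG libraries. Tap2 had 322 and 263 CPM in BATF libraries, against 340 and 258 CPM in MIG libraries. In both genes MIG replicate 1 was the highest library and the groups overlap. The log2 fold change was −0.19 ± 0.13 (SE) for Tap1 and −0.03 ± 0.15 for Tap2, with edgeR adjusted p of 0.724 and 0.986. Tapbp, whose product tapasin loads the peptide, had 494 and 445 CPM in BATF libraries, against 552 and 468 CPM in MIG libraries, again with MIG replicate 1 highest (log2 fold change −0.12 ± 0.11 SE, edgeR adjusted p = 0.842). Tap1 and Psmb9 share 163 of the 50-base windows of their transcripts on opposite strands, and the sources used here do not give the strand of the libraries, so fragments from there cannot be assigned to either gene with certainty.

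The inducible proteasome subunits were the members with the lowest values in BATF relative to MIG. Psmb8 and Psmb9 were hardly apart from Tap1 in this (log2 fold change −0.19 ± 0.13 SE for Tap1). Psmb10, the subunit MECL-1, had 129 and 124 CPM in BATF libraries, against 168 and 152 CPM in MIG libraries. Both BATF libraries lay below both MIG libraries, with means of 127 ± 3.12 CPM in BATF and 160 ± 10.9 CPM in MIG (SD, n = 2 each). Its log2 fold change was −0.34 ± 0.09 (SE), with a 95% interval of −0.54 to −0.13 and an edgeR p of 0.00591 before and 0.169 after adjustment over all genes. Psmb8, the subunit LMP7, had 508 and 493 CPM in BATF libraries, against 610 and 537 CPM in MIG libraries. The groups do not overlap here either, and the log2 fold change was −0.20 ± 0.09 (SE, edgeR adjusted p = 0.524). Psmb9, the subunit LMP2, had 139 and 123 CPM in BATF libraries, against 170 and 133 CPM in MIG libraries. Here the groups overlap, since MIG replicate 2 lies below BATF replicate 1, and the log2 fold change was −0.21 ± 0.13 (SE, edgeR adjusted p = 0.680).

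Without MIG replicate 2, the edgeR log2 fold change was −0.41 for Psmb10, −0.38 for Psmb9 and −0.36 for Tap1. In that fit the lone MIG library is assumed to vary like the BATF libraries. Among fits without 1 library, only this one called members. Each fit without 1 library, here and below, called more genes over all than the fit to the 4 libraries. A call made only in such a fit therefore says little about a gene. Without MIG replicate 1 the log2 fold changes of Tap1 and Psmb9 shrank to −0.00270 and −0.0237.

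Each inducible subunit replaces a constitutive one, Psmb8 that of Psmb5, Psmb9 that of Psmb6 and Psmb10 that of Psmb7. The constitutive transcripts stood at similar levels in both groups, with 0 of the 3 called, though all 3 log2 fold changes were negative. Psmb5 stood at 131 ± 7.98 CPM in BATF and 139 ± 5.78 CPM in MIG, and Psmb7 at 149 ± 12.9 CPM in BATF and 153 ± 6.91 CPM in MIG (SD, n = 2 each). Psmb6 had 105.8 and 110.6 CPM in BATF libraries, against 120.5 and 111.0 CPM in MIG libraries, which do not overlap (log2 fold change −0.10, edgeR adjusted p = 0.835). The FPKM ratio of Psmb10 to Psmb7 was 0.661 and 0.565 in BATF libraries, against 0.816 and 0.695 in MIG libraries. The ratio of Psmb8 to Psmb5 was 2.66 and 2.36 in BATF libraries, against 2.79 and 2.60 in MIG libraries. That of Psmb9 to Psmb6 was 1.81 and 1.54 in BATF libraries, against 1.95 and 1.66 in MIG libraries. The inducible transcript exceeded its constitutive counterpart for Psmb8 and Psmb9 in all 4 libraries and lay below it for Psmb10. On the log2 scale the ratio differed by −0.30, −0.10 and −0.11 for Psmb10, Psmb8 and Psmb9. The exact two-sided permutation p was 0.333 for Psmb10, the smallest that 2 libraries against 2 can give, and 0.667 for the other 2 ratios.

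**Figure D2:**
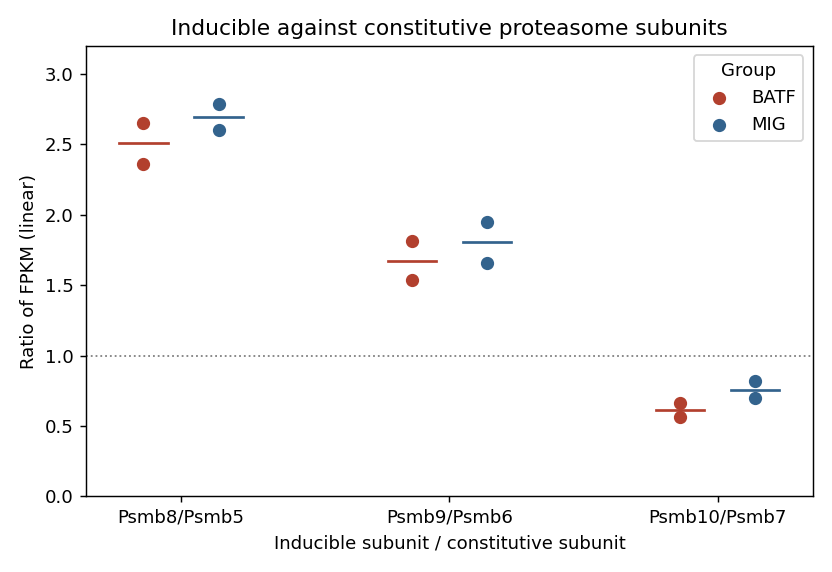
Ratio of the FPKM of each inducible proteasome subunit to that of the constitutive subunit it replaces, on a linear axis from 0, with 1 point per library and a bar at the group mean, BATF left of MIG. The Psmb10 ratios are 0.565 to 0.661 in BATF and 0.695 to 0.816 in MIG, and the other ratios overlap between the groups.

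Nlrc5, the class I transactivator, had 185 and 166 CPM in BATF libraries, against 209 and 158 CPM in MIG libraries. MIG replicate 1 was the highest and MIG replicate 2 the lowest library, so both BATF libraries fell inside the MIG range. Its log2 fold change was −0.06 ± 0.14 (SE, edgeR adjusted p = 0.960), with an interval of −0.40 to 0.27.

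**Figure D3:**
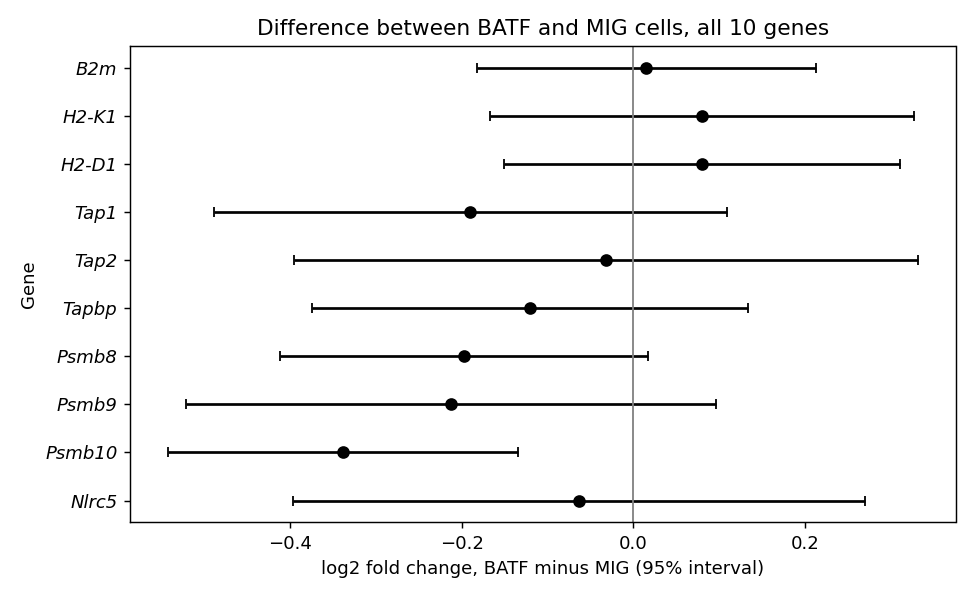
Log2 fold change (BATF minus MIG) of the 10 genes with its 95% interval for the single gene, from edgeR, 2 libraries per group. The interval of Psmb10 (−0.54 to −0.13) lies below 0 and those of the other 9 include it, and no gene passed after adjustment over all genes.

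Of the 10 genes, edgeR called 0 higher and 0 lower at an adjusted p under 0.05, where it called 1.09% of all tested genes, 0.884% higher and 0.208% lower. DESeq2 and limma on FPKM also called 0 of the 10. At an unadjusted p under 0.05, Psmb10 was the 1 member lower and 0 were higher, where the shares over all genes were 4.09% and 6.69%. A negative log2 fold change was seen in 7 of the 10, where 51.5% of all genes had one. The BATF libraries both lay below the MIG libraries in 2 of the 10, Psmb8 and Psmb10, where 19.4% of all genes did, so that count is near the background. The median log2 fold change was −0.09 for the members and −0.01 for all genes tested. The 10 genes together took 0.867% and 0.798% of the fragments in BATF libraries, against 0.868% and 0.795% in MIG libraries.

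Libraries of the same group were apart for several of these genes. In BATF, replicate 1 exceeded replicate 2 by 1.22-fold for Tap2, by 1.13-fold for Psmb9 and by 1.11-fold for Nlrc5. In MIG, replicate 1 exceeded replicate 2 by 1.32-fold for Tap2, 1.33-fold for Nlrc5 and 1.27-fold for both Tap1 and Psmb9. MIG replicate 1 was the highest of the 4 libraries for 7 of the 10, all but B2m, H2-K1 and H2-D1, where 29.1% of all genes were highest in it. Its median deviation from the mean of the 4 libraries was 0.20 (log2) over the members, against 0.00051 over all genes. Replicate 1 lay above replicate 2 in both groups for 9 of the 10 genes, where 31.4% of all genes did so, and B2m was the exception. The numbers only name libraries, and what separates them was not tested.

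**Figure D4:**
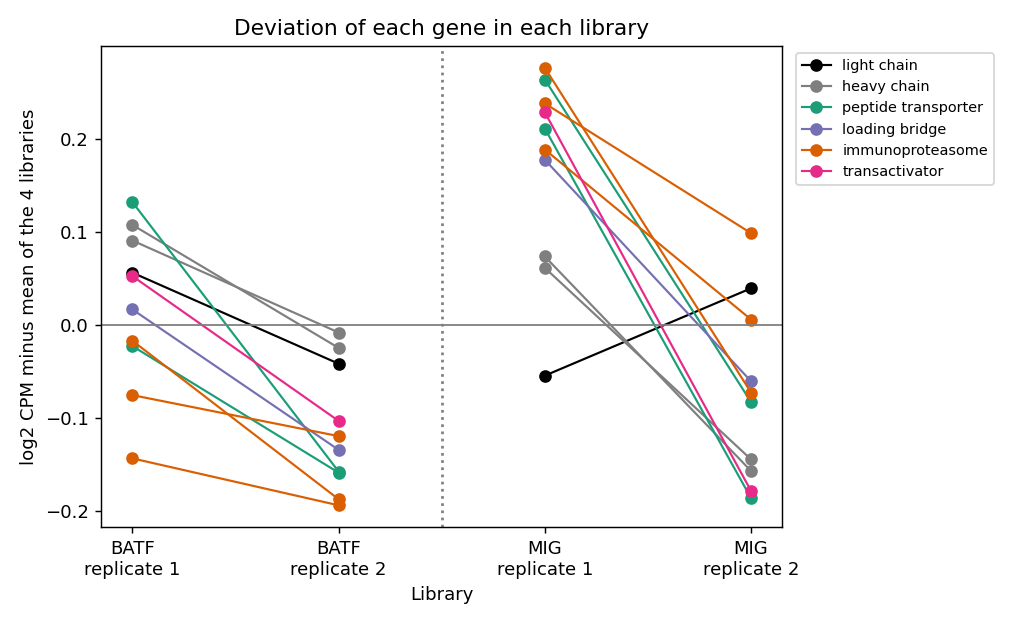
Log2 CPM of each of the 10 genes in each library minus the gene's mean over the 4 libraries, with lines joining the 2 libraries of a group and colours for the roles. In MIG replicate 1, 9 genes lie above 0 and B2m below it, and in BATF replicate 2 all 10 lie below 0.

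The rest of the pathway was read from lists of further genes. For these lists, changed, rose and fell mean an edgeR adjusted p under 0.05, and a gene that did not pass may still differ. Among other class I heavy chains and relatives, 16 of 31 listed genes passed the filter and 0 changed (median log2 fold change 0.01, with 8 positive and 8 negative, and a median of −0.00194 with the authors' library factors). Single libraries moved that median, to −0.211 without MIG replicate 2 and to 0.0404 without MIG replicate 1. H2-T24, a nonclassical heavy chain gene, had 8.01 and 7.08 CPM in BATF libraries, against 15.5 and 12.2 CPM in MIG libraries (log2 fold change −0.88 ± 0.18 SE, edgeR adjusted p = 0.0946). H2-Q8, of the Qa group, lay the other way, with 71.2 and 82.9 CPM in BATF libraries, against 44.0 and 54.5 CPM in MIG libraries (log2 fold change 0.65 ± 0.13 SE, edgeR adjusted p = 0.0948). Neither pair of groups overlaps. Both genes passed in DESeq2, with adjusted p of 0.0191 for H2-T24 and 0.00275 for H2-Q8, in edgeR on unfiltered counts (0.0259 and 0.0120), and in edgeR without MIG replicate 2 (0.00566 and 0.000772) or without BATF replicate 1 (0.0429 and 0.0116). H2-Q8 carries fractional counts in 2 libraries, and its fragments may be split with its near relatives. H2-M3, which presents formylated peptides, had 24.8 and 21.0 CPM in BATF libraries, against 34.4 and 28.4 CPM in MIG libraries, and H2-T23, which encodes Qa-1, had 153 and 126 CPM in BATF libraries, against 180 and 142 CPM in MIG libraries. The edgeR adjusted p of H2-M3 was 0.284, and its log2 fold change ran from −0.593 to −0.305 with 1 library left out.

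Of 21 helpers of peptide loading and trimming, 0 changed, and the median log2 fold change was −0.01. The chaperone Calr stood at 882 ± 67.7 CPM in BATF and 865 ± 55.2 CPM in MIG (SD, n = 2 each). Erap1, the aminopeptidase that trims peptides in the endoplasmic reticulum, had 164 and 168 CPM in BATF libraries, against 182 and 227 CPM in MIG libraries (edgeR adjusted p = 0.396). With 1 library left out, its log2 fold change ran from −0.448 to −0.139. Tapbpl, a relative of tapasin that edits bound peptides, had 73.3 and 71.0 CPM in BATF libraries, against 103 and 84.8 CPM in MIG libraries (log2 fold change −0.38 ± 0.11 SE, edgeR adjusted p = 0.231). Without MIG replicate 2 its log2 fold change was −0.52 (edgeR adjusted p = 0.00420), and without MIG replicate 1 it was −0.23 (0.341).

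Among proteasome genes the core and cap subunits lay near 0. Of the 11 other 20S core subunits 0 changed (median −0.05, from −0.13 for Psma1 to 0.07 for Psma3), and of the 21 subunits of the 19S cap 0 changed (median −0.02, from −0.09 for Psmd14 to 0.12 for Psmd9). The activator PA28 is built from the products of Psme1 and Psme2, both of which interferon is known to induce. Psme2 had 189 and 201 CPM in BATF libraries, against 282 and 267 CPM in MIG libraries, and the groups do not overlap (log2 fold change −0.49 ± 0.08 SE, edgeR adjusted p = 0.0527). Its adjusted p fell under 0.05 in DESeq2 (0.00349), in edgeR on unfiltered counts (0.0141) and in edgeR without MIG replicate 1 (0.0429) or MIG replicate 2 (0.00175). Psme1 had 255 and 244 CPM in BATF libraries, against 312 and 295 CPM in MIG libraries (log2 fold change −0.28 ± 0.08 SE), with an edgeR adjusted p of 0.222. With 1 library left out, its log2 fold change ran from −0.329 to −0.237. Psme4, which encodes the PA200 activator, lay the other way at 122 ± 4.76 CPM in BATF and 94.9 ± 4.63 CPM in MIG (SD, n = 2 each), with an edgeR adjusted p of 0.132. Its log2 fold change ran from 0.322 to 0.411 with 1 library left out. In the list of 10 activators, inhibitor and assembly factors edgeR called 0.

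Of 22 transcription regulators of class I genes, Prdm1 rose and 0 fell. Prdm1, which encodes the repressor BLIMP-1, stood at 38.7 and 31.3 CPM in BATF libraries, against 15.9 and 11.5 CPM in MIG libraries, with a log2 fold change of 1.35 ± 0.19 SE and an edgeR adjusted p of 0.0279. That call was lost in limma on log2(FPKM + 1) (adjusted p = 0.0899) and on log2(FPKM + 0.1) (0.0627). Irf9, a factor of the type I interferon response, had 52.1 and 47.9 CPM in BATF libraries, against 71.8 and 63.3 CPM in MIG libraries (edgeR adjusted p = 0.145). Its log2 fold change ran from −0.530 to −0.338 with 1 library left out. Irf1, a factor that binds class I promoters, had 134 and 113 CPM in BATF libraries, against 170 and 127 CPM in MIG libraries, which overlap (log2 fold change −0.27 ± 0.15 SE, edgeR adjusted p = 0.644). It passed without MIG replicate 2 (0.0161). Ezh2, the methyltransferase that silences class I genes in some tumour cells, stood at 317 ± 36.1 CPM in BATF and 241 ± 16.4 CPM in MIG (SD, n = 2 each), with an edgeR adjusted p of 0.194. With 1 library left out, its log2 fold change ran from 0.275 to 0.507. Rfx5, a subunit of the RFX complex that binds class I and class II promoters, stood at 22.3 ± 3.17 CPM in BATF and 18.6 ± 2.32 CPM in MIG (SD, n = 2 each). Ciita, the class II counterpart of Nlrc5, stayed under 1 CPM, from 0.580 to 0.735 in BATF libraries and from 0.613 to 0.922 in MIG libraries.

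Among 8 genes for interferon gamma, interferon receptors and their kinases 0 changed, 5 had an unadjusted p under 0.05 with lower values in BATF (4.09% of all tested genes did), and the median log2 fold change was −0.32. Ifngr2, a chain of the interferon gamma receptor, had 8.86 and 10.5 CPM in BATF libraries, against 17.4 and 27.2 CPM in MIG libraries (log2 fold change −1.20 ± 0.23 SE, edgeR adjusted p = 0.0805). Its adjusted p fell under 0.05 in DESeq2 (7.69e-05), with the authors' library factors (0.0434), on unfiltered counts (0.00376) and in edgeR in each fit without 1 library (0.00629 to 0.0172). Ifnar1, a chain of the type I receptor, had 138 and 138 CPM in BATF libraries, against 197 and 178 CPM in MIG libraries (edgeR adjusted p = 0.0814), and its adjusted p fell under 0.05 in DESeq2 (0.0221), on unfiltered counts (0.0355) and without MIG replicate 2 (0.00213). Members of these 9 further lists are not independent replicates, and the lists were not tested as sets.

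**Figure D5:**
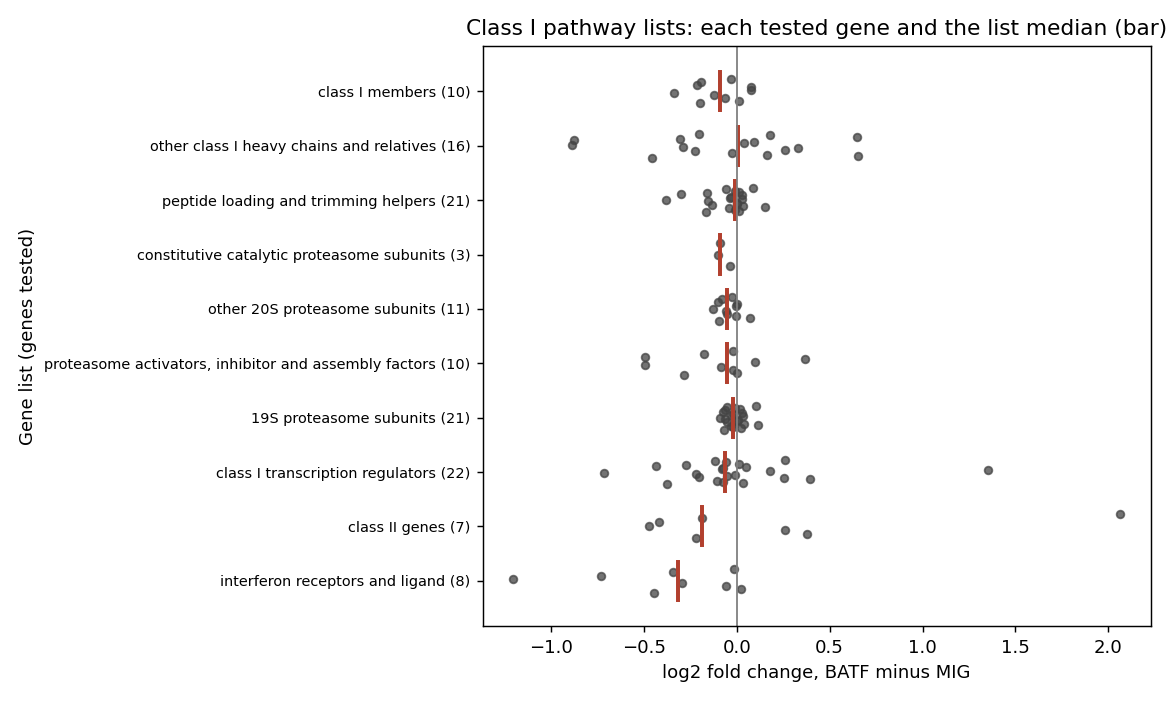
Log2 fold change (BATF minus MIG) of each tested gene in the 10 lists, with a vertical bar at each list's median and the number of genes tested in brackets. The medians run from −0.32 for the interferon receptor list to 0.01 for the other heavy chains, and of all points Prdm1 at 1.35 alone passed the test over all genes, while the class II point at 2.06 (H2-Ab1) did not.

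The cells carried the markers of their label, with 6001 and 6410 CPM summed over 12 CD8 T cell markers in BATF libraries, against 7188 and 7058 CPM in MIG libraries. Of these 12, edgeR called 0, but 10 had a negative log2 fold change, where 51.5% of all tested genes did. An edgeR unadjusted p under 0.05 with lower values in BATF was found for 4 (4.09% of all tested genes). Both BATF libraries lay below both MIG libraries for 6, against 19.4% of all genes. Cd8a stood at 423 and 599 CPM in BATF libraries, against 659 and 750 CPM in MIG libraries. Its log2 fold change was −0.46 ± 0.16 SE (edgeR adjusted p = 0.337), and −0.736 to −0.231 with 1 library left out. In bulk RNA, fewer cells of a type and less RNA per cell cannot be told apart. Class II genes, which mark antigen-presenting cells, summed to 57.4 and 30.3 CPM in BATF libraries, against 57.9 and 33.5 CPM in MIG libraries. The sums came mostly from H2-DMa (means of 18.5 CPM in BATF and 24.7 CPM in MIG) and H2-Oa (12.0 and 13.9 CPM). Of the 10 class II genes 5 were under 1 CPM in every library, H2-Aa and H2-Eb1 among them. Of the 7 tested class II genes 0 changed. H2-Ab1, a chain of the class II molecule, had 14.1 and 2.85 CPM in BATF libraries, against 3.15 and 0.777 CPM in MIG libraries (edgeR adjusted p = 0.418). With 1 library left out, its log2 fold change ran from 0.511 to 3.43. Of 10 B cell markers 9 were under 1 CPM in every library, the list summing to 15.0 and 14.4 CPM in BATF, against 19.9 and 16.1 CPM in MIG. Of 13 listed myeloid and dendritic markers 11 were under 1 CPM, and the list summed to 44.4 and 36.9 CPM in BATF, against 27.8 and 27.4 CPM in MIG, mostly from Itgax, a gene named after its values were seen. The 6 CD4 and regulatory T cell markers summed to 61.5 and 53.0 CPM in BATF, against 43.3 and 39.1 CPM in MIG. The higher sum in BATF came from Zbtb7b, with means of 39.6 CPM in BATF and 20.4 CPM in MIG. Cd4 itself stayed under 1 CPM in every library. Of the 5 tested members of that list, 2 had a positive and 3 a negative log2 fold change. The 7 NK and gamma-delta markers summed to 3.06 and 2.94 CPM in BATF, against 3.72 and 3.74 CPM in MIG. For 9 erythroid, platelet and stromal markers the sums were 64.9 and 60.4 CPM in BATF, against 91.3 and 65.8 CPM in MIG. Nearly all of these came from Pecam1, with 60.6 and 54.5 CPM in BATF libraries, against 88.2 and 59.7 CPM in MIG libraries. The part of other cells in the class I values was not tested.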

How the data were processed

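Poly(A) RNA was sequenced in 2 BATF and 2 MIG libraries, grouped by their titles. The submitters' processing notes list TopHat2 2.1.1, Cufflinks 2.2.2, Cuffdiff and the build mm9, and no annotation or strand setting is given in the sources used here. The table deposited, per the file headers, gives estimated counts (fragments per gene before scaling), a scaled fragment signal (by its values, the counts times a factor the authors set for each library) and FPKM. It numbers replicates 0 and 1, read here as replicates 1 and 2 of the titles, which cannot be checked, so a number only names a library.

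Rounded counts went into edgeR 4.0.16 under R 4.3.3 (filterByExpr, TMM scaling, glmQLFit and glmQLFTest, BATF against MIG, no covariate). P-values were adjusted by Benjamini-Hochberg over 13008 genes, threshold 0.05. CPM is TMM-scaled, and intervals use the standard error and the test's degrees of freedom, without adjustment. The code was tested on simulated data. The design text calls the libraries biological replicates without naming mice, so p-values measure the spread between libraries, which may in part be technical. Libraries of each group were farther apart than sampling noise (chi-square per gene 9.49 in BATF, 17.7 in MIG). The smallest p of a two-sided exact permutation test is 0.333 at this size. Alternatives were DESeq2 1.42.0, limma 3.58.1 on log2(FPKM + 1) or (FPKM + 0.1), other scalings, no filter, a replicate block and leaving out each library.

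The members and lists were chosen with earlier results of these data known. Named genes were the members, further genes set by name, every listed gene that passed, and up to 4 extremes per list with a mean of at least 5 CPM, and 1 gene that this rule names is not reported here. H2-Gs10, Ly6g, Emr1 and Tcrg-C1 were in the lists but not in the table under those names.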

Additional observations from a re-analysis of the deposited data

How the results depend on the processing

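With 2 libraries per group, counts of calls moved with the test and with single libraries, while 0 of the 10 members were called in DESeq2, both limma fits, both other scalings and on unfiltered counts. Over all genes, where edgeR called 115 higher and 27 lower, the counts were 266 and 83 with no filter on low counts, 253 and 92 in DESeq2, 40 and 4 in limma on log2(FPKM + 1), and 71 and 10 on log2(FPKM + 0.1). With 1 library left out they ran from 192 to 320 higher and from 55 to 269 lower. For the class I members the lower calls ran from 0 to 3 with 1 library left out. For the 9 pathway lists together, where edgeR called 1 gene higher and 0 lower, the counts were 2 and 5 with no filter, 2 and 5 in DESeq2, 0 higher in both limma fits, and 2 lower with the authors' library factors. With 1 library left out they ran from 2 to 4 higher and from 1 to 16 lower.

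With the replicate number as a block, which leaves 1 residual degree of freedom, 916 genes were higher and 588 lower, 1 member was lower (Psmb10, edgeR adjusted p = 0.000342), and 8 and 19 listed genes were higher and lower. Deviations of same-numbered libraries correlated at 0.348 over 13008 genes, but no label says what the number marks, and 2 pairs do not establish a pairing.

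Leaving out 1 library turned the sign of uncalled log2 fold changes, which ran from −0.0335 to 0.0627 for B2m, −0.0379 to 0.203 for H2-K1, −0.0265 to 0.190 for H2-D1, −0.224 to 0.184 for Tap2, −0.241 to 0.00735 for Tapbp and −0.259 to 0.158 for Nlrc5. Among the other genes they ran from −0.126 to 0.0526 for Psmb7, −0.473 to 0.10 for Ciita, −0.0517 to 0.107 for Calr, −0.0571 to 0.247 for Prkcsh, −0.0149 to 0.259 for Psmd9, −0.638 to 0.307 for H2-Oa and −0.0931 to 0.144 for Tyk2. The cause was not tested. The members' median ran from −0.250 to 0.00233 in these fits. No scaling moved the median of all genes by more than 0.1.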
